A study of Mus musculus with 6 samples.

Results

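The genes described here are 34 markers and effectors of the cell division cycle, of the 20914 genes listed in the deposited tables. They were taken by name and divided by the phase in which each is best known to act, with 4 at the G1/S transition, 10 in S phase and 20 in G2 and mitosis (G2/M). All 34 were found in both tables. Liver RNA of mice was sequenced in 6 libraries, of which 3 carry the label PBS and 3 the label DOX, and the question was whether the cell cycle genes differed between these groups. Every library, PBS included, carries the genotype label BucheKI/KI-Hep, a knock-in of Buche (the label's name for butyrylcholinesterase, gene Bche) in hepatocytes that the titles tie to Alb-Cre, the Cre recombinase driven by the albumin promoter. All 6 also carry the label of BDL treatment, where BDL commonly stands for bile duct ligation, and the title element S10D. The labels explain neither DOX nor S10D, give no age, and do not say whether each library came from its own mouse, so the tests compare these libraries, and their spread may be partly technical.

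Cells that divide pass from G1 into S phase, in which DNA is copied, and through G2 into mitosis. Cyclins and their kinases drive the transitions, the MCM helicase opens the DNA at replication origins, and a set of kinases, motors and ubiquitin ligase subunits separates the chromosomes. Adult hepatocytes are mostly outside the cycle and return to it after injury or loss of tissue, and ligation of the bile duct is known for making duct cells divide. Many of these genes are switched by promoter elements: E2F sites at genes of G1/S and S phase, and the cell cycle genes homology region (CHR), often beside CCAAT boxes, at genes of G2/M. In whole liver, fewer dividing cells and less of these RNAs per dividing cell cannot be told apart.

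Promoters of 4 members are shown so that the presence and absence of these elements can be read beside the values: Rrm2 and Ube2c had the smallest p of the S and G2/M members in the comparison below, and Cdk1 and Cdc20 are the central kinase and the activator of the ubiquitin ligase of mitosis. Sequences are from RefSeq on GRCm38.p6 and run from 250 bases before to 50 after the annotated start of the gene. Capitals mark matches, on either strand, to E2F (TTTCCCGC, TTTCGCGC, TTTGCCGC or TTTGGCGC), CHR (TTTGAA or TTCGAA) or CCAAT.
Rrm2 (chr12:24708004-24708303, plus strand): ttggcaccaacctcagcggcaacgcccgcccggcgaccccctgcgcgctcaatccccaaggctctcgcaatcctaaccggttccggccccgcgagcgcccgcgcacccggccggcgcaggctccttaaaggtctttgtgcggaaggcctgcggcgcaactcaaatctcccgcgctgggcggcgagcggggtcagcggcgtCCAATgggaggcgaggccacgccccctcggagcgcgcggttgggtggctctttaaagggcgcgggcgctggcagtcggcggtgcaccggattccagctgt
Ube2c (chr2:164769679-164769978, plus strand): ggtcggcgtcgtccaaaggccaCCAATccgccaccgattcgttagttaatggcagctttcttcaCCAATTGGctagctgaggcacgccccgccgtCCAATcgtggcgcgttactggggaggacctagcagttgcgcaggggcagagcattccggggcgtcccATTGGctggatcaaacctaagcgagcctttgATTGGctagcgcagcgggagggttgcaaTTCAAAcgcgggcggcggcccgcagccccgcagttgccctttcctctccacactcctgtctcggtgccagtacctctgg
Cdk1 (chr10:69352863-69353162, minus strand): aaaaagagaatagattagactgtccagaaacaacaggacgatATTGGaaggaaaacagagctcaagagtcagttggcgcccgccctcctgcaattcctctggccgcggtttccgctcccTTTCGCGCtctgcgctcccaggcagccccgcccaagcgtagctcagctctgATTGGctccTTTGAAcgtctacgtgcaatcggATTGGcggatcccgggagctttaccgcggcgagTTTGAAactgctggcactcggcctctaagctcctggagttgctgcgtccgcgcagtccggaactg
Cdc20 (chr4:118437294-118437593, minus strand): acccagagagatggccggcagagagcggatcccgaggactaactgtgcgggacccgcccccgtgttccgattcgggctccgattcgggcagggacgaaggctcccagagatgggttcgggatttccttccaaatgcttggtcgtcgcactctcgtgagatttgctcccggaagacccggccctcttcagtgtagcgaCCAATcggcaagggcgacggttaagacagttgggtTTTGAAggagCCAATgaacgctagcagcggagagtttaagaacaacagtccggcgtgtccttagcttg

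In Cdc20, the CHR match TTTGAA begins 18 bases before the start site, and CCAAT matches begin 53 and 8 bases before it. Cdk1 holds CHR matches 71 and 15 bases before the start, 3 CCAAT matches and the E2F match TTTCGCGC, 131 bases before it. In Ube2c, 6 CCAAT matches, of which the second and the third overlap, stand before a single CHR match that begins 29 bases from the start. Rrm2 has 1 CCAAT match and neither of the other motifs in this window.

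Of the 34 members, 26 had a promoter in the RefSeq table. CHR matches were in 13 of the 15 G2/M promoters found there (86.7%) and in 2 of the 9 S promoters (22.2%), against 19.4% of the promoters of all 27025 gene symbols in that table, 1 per symbol. The same 13 G2/M promoters also held a CCAAT match, a combination present in 7.7% of all promoters. E2F matches were in 5 of the 9 S promoters (55.6%), those of Mcm3, Mcm5, Mcm6, Mcm7 and Hells, in 1 of 15 G2/M promoters, that of Cdk1, and in 2.32% of all promoters. Of the 2 G1/S promoters found, that of Cdc6 held an E2F match. CHR matches were thus mostly at G2/M members and E2F matches mostly at S members. These are counts of letters in a fixed window, not measures of binding.

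**Figure D1:**
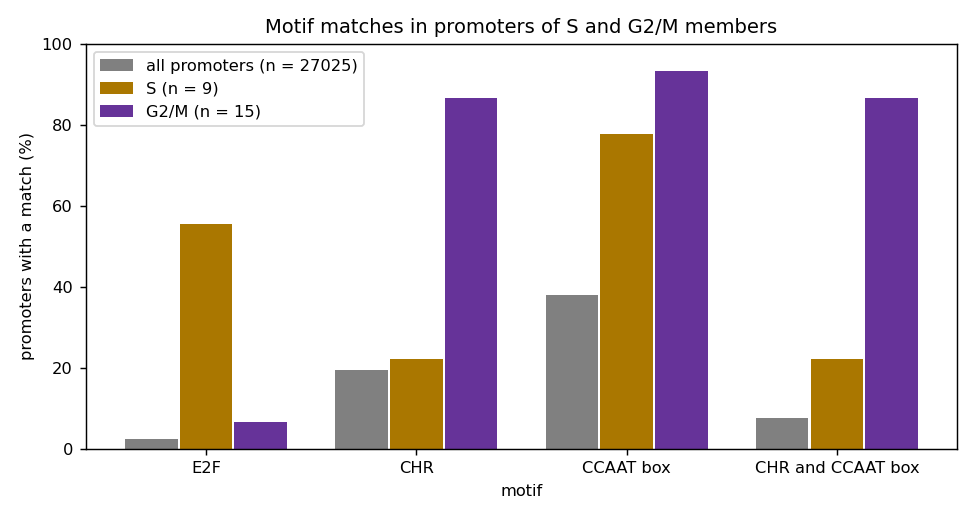
Share of promoters (%, vertical axis) with a match to each motif (horizontal axis), for all 27025 promoters (grey), the 9 S members (brown) and the 15 G2/M members (purple). CHR with a CCAAT box was present in 86.7% of G2/M promoters and in 7.7% of all promoters.

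Total gene counts per library were 32826493 to 41102844, and 13725 genes passed the filter on low counts. Levels are given in CPM, counts scaled to library depth by the trimmed mean of M-values. Bche, the gene of the knock-in label, averaged 210.6 ± 29.7 CPM (SD, n = 3) in PBS and 670.6 ± 268.9 CPM (SD, n = 3) in DOX. The groups did not overlap (edgeR adjusted p = 0.106, DESeq2 adjusted p = 2.9e-08). Hepatocyte markers, 9 in number and Alb the greatest of them, summed to 66128.0 to 79192.1 CPM in PBS and 81349.3 to 141603.8 in DOX, so the tissue label was borne out by its defining genes.

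Levels per length, in FPKM (fragments per kilobase of gene, scaled to the depth of the library, the values of the authors), ranged widely, and most of the S genes stood above most of the G2/M genes. Ccnd1 (30.8 ± 13.2 FPKM, mean ± SD over all 6 libraries) and Pcna (30.4 ± 2.1) stood far above the other members, and the order of these 2 cannot be told given the spread of Ccnd1. Mcm7 came next at 4.24 ± 0.617 FPKM, then Rrm2 at 2.13 ± 0.831 and Mcm6 at 1.81 ± 0.362, whose spreads overlap. Of the G2/M members, Cenpa, the histone variant of the centromere, had the highest level at 1.3 ± 0.35 FPKM, and Ube2c followed at 0.708 ± 0.348. The mitotic genes lay low in general: the tested ones had a median of 0.261 FPKM, against 1.32 for the S members and 3.29 for all genes tested. Mki67, the proliferation antigen read in tissue sections as Ki-67, stood at 0.283 ± 0.141 FPKM and Cdk1 at 0.261 ± 0.0757. At the foot of the order were Hells (0.0599 FPKM), Bub1 (0.0541), Cdc6 (0.0512) and Cenpf (0.0263).

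**Figure D2:**
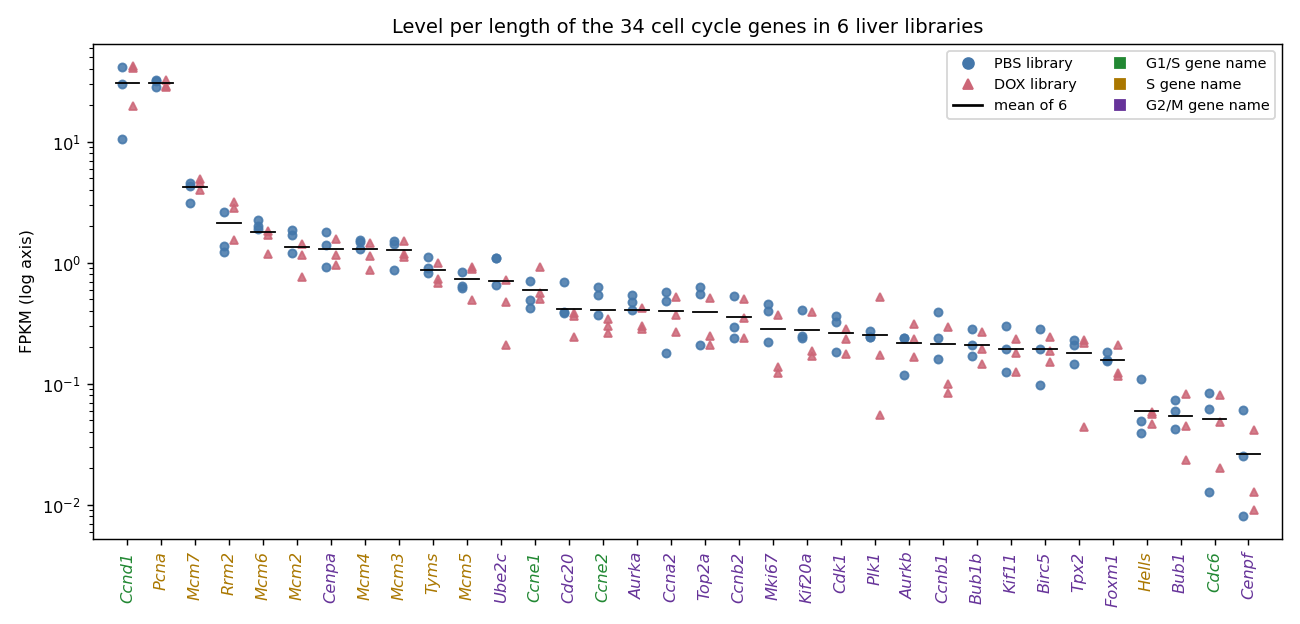
FPKM of each member (vertical log axis) in the 3 PBS libraries (circles) and the 3 DOX libraries (triangles), ordered by the 6-library mean (line), with gene names coloured by phase. Ccnd1 and Pcna stand near 30 FPKM. PBS and DOX points overlap for each gene except Ccne2 and Mcm6, whose DOX points lie below their PBS points.

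In counts, the G2/M members held 3 to 188 per library with a median of 28, and the S members 15 to 1624 with a median of 178. Replicates of a group nevertheless differed by more than counting error, with a median ratio of observed to Poisson variance of 3.91 for G2/M, 5.5 for S and 3.83 for G1/S members, with Foxm1 the lowest member at 1.18 and Ccnd1 the highest at 782.8. Cdc6 reached as few as 2 counts in PBS replicate 2 and Cenpf 3, the floor used here.

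No member passed the test of DOX against PBS. Of the 33 members that passed the filter, 0 were higher and 0 lower by edgeR's quasi-likelihood test at an adjusted p of 0.05, where 0.0291% of all genes tested were called, 0.0219% higher and 0.00729% lower. DESeq2 called 0 members (1.19% of all genes) and limma-voom 0 (0.0146%). At an unadjusted p under 0.05 there were also 0 members by edgeR, against 9.90% of all genes. The smallest adjusted p among members was 0.563, for Ccne2. For all 34 members the CPM of the 3 DOX libraries overlapped those of the 3 PBS libraries, while 16.9% of all genes tested had groups that did not overlap. In FPKM, which lack the scaling by the trimmed mean of M-values, the groups of Ccne2 and Mcm6 did not overlap.

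A miss of the threshold does not show equal levels, and the intervals differ by phase. The 95% interval of the fold change lay within 2-fold either way for 8 of 10 S members but for 4 of 19 tested G2/M members and 0 of 4 G1/S members, against 76.1% of all genes. For 15 of the 19 mitotic genes tested, the interval thus still held a change of 2-fold in at least 1 direction. Log2 fold changes were negative for 1 of 4 G1/S, 5 of 10 S and 14 of 19 G2/M members, against 53.0% of all genes. Their medians were 0.21, -0.02 and -0.15, beside -0.02 for all genes.

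**Figure D3:**
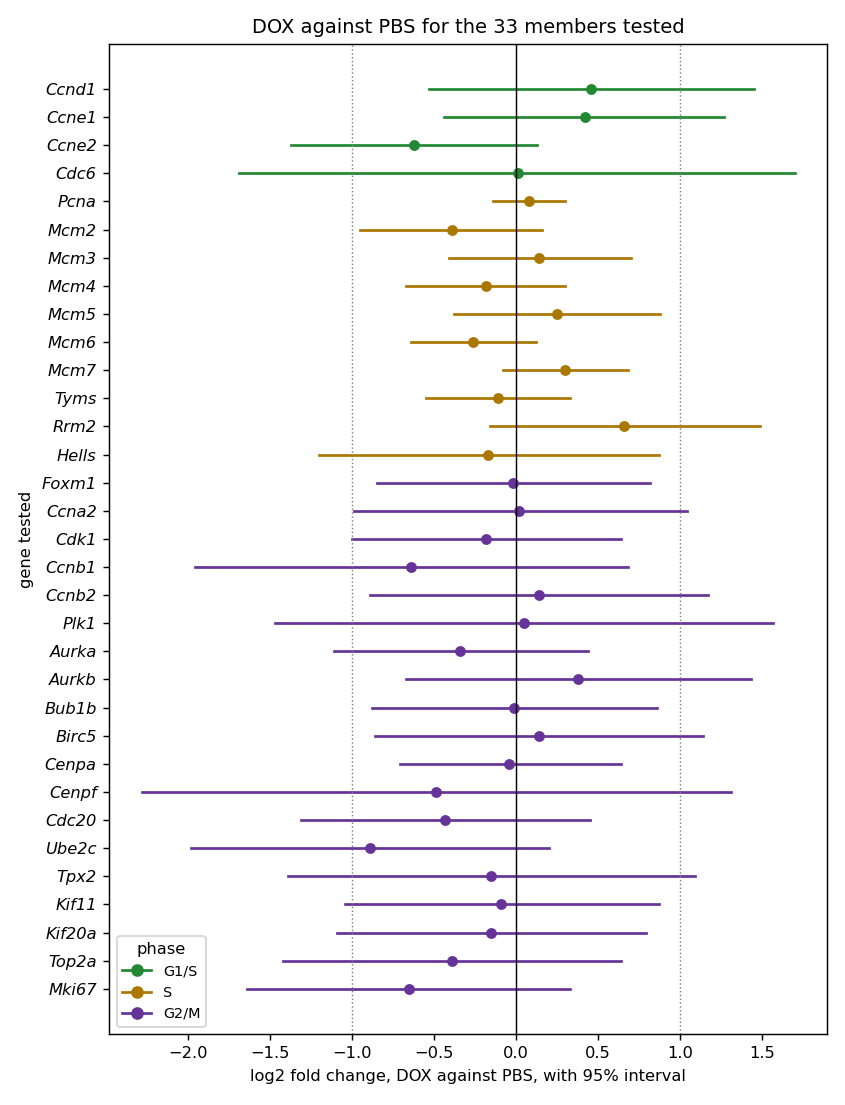
Log2 fold change of DOX against PBS (horizontal axis) with its 95% interval for the 33 members tested, coloured by phase, with dotted lines at 2-fold either way. Every interval spans 0, and those of the S members are the narrowest as a group, that of Pcna running from -0.14 to 0.30.

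Among the G1/S genes, Ccnd1 (chr7:144929931-144939925, GRCm38, protein coding) encodes cyclin D1, which couples growth signals to the start of the cycle. It stood at 105.6, 39.2 and 147.0 CPM in PBS replicates 1 to 3 and at 164.2, 153.5 and 83.3 in DOX replicates 1 to 3. PBS replicate 2 was the lowest and DOX replicate 1 the highest, and DOX replicate 3 lay below 2 PBS libraries. The log2 fold change was 0.46 (SE 0.43, 95% interval -0.53 to 1.45, edgeR adjusted p = 0.752), and it came to 0.08 without PBS replicate 2 and 0.88 without PBS replicate 3. In PBS replicate 2 the endothelial markers were also lowest, with a sum over 10 of 10 genes of 46.7 CPM against 141.6 to 147.1 in the other PBS libraries. In DOX replicates 1 to 3 that sum was 228.5, 116.4 and 213.1 CPM, so there it did not follow the order of Ccnd1. The sum of the 10 stellate cell markers was 281.3, 215.3 and 320.2 CPM in PBS and 412.0, 384.5 and 152.7 in DOX. It had the library order of Ccnd1, except that DOX replicate 3 rather than PBS replicate 2 was lowest. The part of endothelial or stellate cells in the Ccnd1 values was not tested.

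Cyclins E1 and E2, which activate CDK2 at the entry into S phase, had opposite signs. Ccne1 stood at 0.9, 1.36 and 0.776 CPM in PBS and 1.87, 1.09 and 1.08 in DOX, with DOX replicate 1 the highest. Ccne2 stood at 1.13, 2.03 and 1.66 CPM in PBS and 1.17, 0.857 and 1.08 in DOX, where DOX replicate 1 exceeded PBS replicate 1 and the groups so overlapped. Log2 fold changes were 0.42 (SE 0.37) and -0.62 (SE 0.33), and neither passed (edgeR adjusted p = 0.736 and 0.563). Cdc6, which loads the MCM helicase onto origins, held 2 to 14 counts per library, with a log2 fold change of 0.01 whose interval ran from -1.69 to 1.70.

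Of the phases, the S genes had the sum that varied least between libraries. Their summed level was 77.4 to 85.7 CPM in PBS and 83.3 to 90.2 in DOX, a ratio of 1.17 between the highest and the lowest library. Pcna (chr2:132249162-132253314, GRCm38), the sliding clamp of DNA polymerase, stood at 37.5, 40.8 and 33.7 CPM in PBS and 37.8, 40.9 and 39.5 in DOX. All 6 libraries were close to each other, and the interval of its log2 fold change, -0.14 to 0.30, was the narrowest of the members.

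The 6 subunits of the MCM helicase did not share a sign. Mcm7, Mcm5 and Mcm3 had log2 fold changes of 0.30 (SE 0.17), 0.25 (SE 0.28) and 0.14 (SE 0.24), and Mcm2, Mcm6 and Mcm4 of -0.39 (SE 0.24), -0.26 (SE 0.17) and -0.18 (SE 0.21). None passed (smallest edgeR adjusted p = 0.575, for Mcm7), and all 6 intervals lay within 2-fold either way. Mcm7 stood at 11.6, 13 and 8.48 CPM in PBS and 14.8, 13 and 12.8 in DOX, with PBS replicate 3 apart at the low end. Mcm2 stood at 5.38, 4.02 and 5.83 CPM in PBS and 4.03, 4.76 and 2.83 in DOX, with DOX replicate 3 the lowest. DOX replicate 3 was also the lowest library for Mcm4, Mcm5 and Mcm6.

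Enzymes that supply nucleotides for DNA synthesis also differed in sign. Rrm2, the regulated subunit of ribonucleotide reductase, stood at 2.52, 3 and 5.38 CPM in PBS and 3.52, 6.11 and 7.61 in DOX. DOX replicates 2 and 3 were above all PBS libraries, and DOX replicate 1 was below PBS replicate 3. Its log2 fold change of 0.66 (SE 0.36, 95% interval -0.16 to 1.49) was the highest of the members and did not pass (edgeR adjusted p = 0.57). Tyms, thymidylate synthase, gave -0.11 (SE 0.19) on the log2 scale, and Hells, a chromatin remodeller of replicating DNA, -0.17 (SE 0.45) at 15 to 52 counts.

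The libraries with the highest and the lowest levels of G2/M genes were spread over both groups. Their summed level was 25.5, 15.4 and 21.5 CPM in PBS replicates 1 to 3 and 15.3, 24.1 and 13.9 in DOX replicates 1 to 3, a ratio of 1.83 between the highest and the lowest. PBS replicate 1 lay above the member's own 6-library median for 16 of 20 genes and DOX replicate 2 likewise for 16, against 11 in PBS replicate 3, 8 in PBS replicate 2, 7 in DOX replicate 1 and 2 in DOX replicate 3. PBS replicate 1 was the highest library for 9 of the 20 and DOX replicate 2 for 7, while PBS replicate 2 was the lowest for 7 and DOX replicate 3 for 6. PBS replicate 1 and DOX replicate 2 were thus high, and PBS replicate 2, DOX replicate 1 and DOX replicate 3 low.

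**Figure D4:**
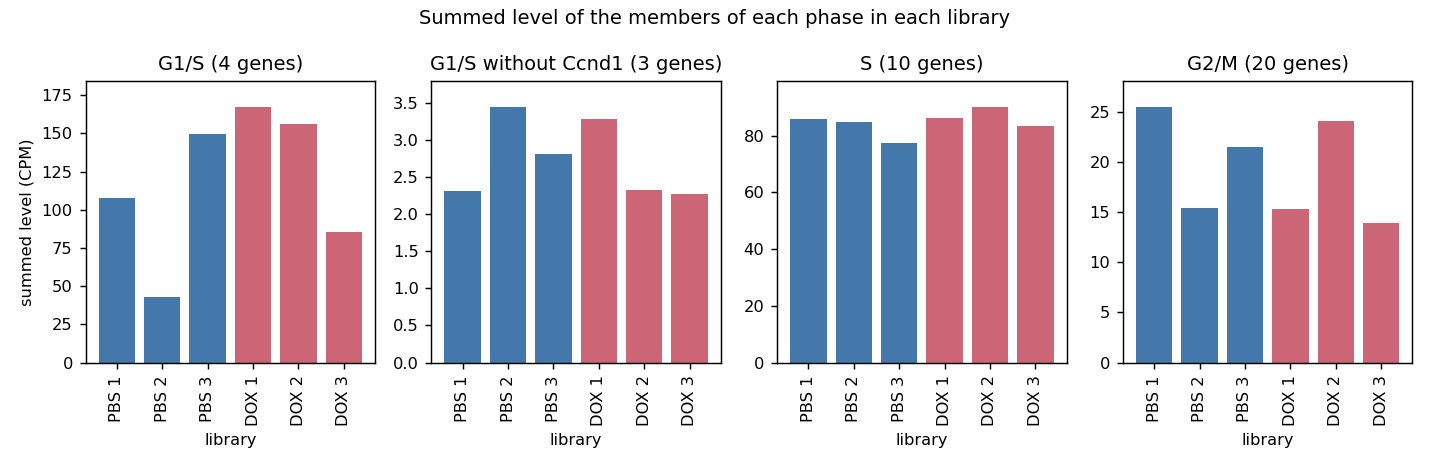
Summed CPM (vertical axis, from 0) of the members of each phase in each library, PBS in blue and DOX in red, with the G1/S genes also shown without Ccnd1. The S sums run from 77.4 to 90.2 CPM, while the G2/M sums run from 13.9 to 25.5, with PBS 1 and DOX 2 the highest.

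Markers of other cells differed between these libraries as well. T and NK cell markers, 9 of the 10 listed being in the table, summed to 3.32 to 5.7 CPM in PBS and 2.86 to 8.06 in DOX. They were highest in DOX replicate 2, and the lowest PBS value was that of PBS replicate 1. The 10 neutrophil markers summed to 15.6 to 31.9 CPM in PBS and to 12.1 to 19.3 in DOX, highest in PBS replicate 1 and lowest in DOX replicate 2. Among them Ly6g and Camp were at 0 in at least 1 library. The 8 B and plasma cell markers summed to 3.69 to 5.93 and 2.24 to 5.38 CPM, with Ms4a1 or Pax5 at 0 in every library of a group. Cholangiocyte markers, 10 of 10 tested, summed to 289.4 to 404.7 CPM in PBS and 140.1 to 270.8 in DOX, with no overlap. Their sum was lowest in DOX replicate 3, as were the G2/M, T and NK cell, B and plasma cell, stellate and macrophage sums. The other libraries did not share an order. The cholangiocyte sum was highest in PBS replicate 2, where the G2/M sum was 15.4 CPM. It was lower in DOX replicate 2 (239.6 CPM, G2/M 24.1) than in DOX replicate 1 (270.8 CPM, G2/M 15.3). All 10 cholangiocyte markers had negative log2 fold changes (median -0.66), with 0 called by edgeR, 5 at an unadjusted p under 0.05 and 2 called by DESeq2. All 10 endothelial markers had positive log2 fold changes (median 0.88), with 0 called by edgeR or DESeq2 and 2 at an unadjusted p under 0.05 by edgeR. Of the neutrophil markers 7 were tested, all with negative log2 fold changes (median -0.59), with 0 called by either tool, 2 at an unadjusted p under 0.05 by edgeR and 2 whose groups did not overlap. Of the 9 hepatocyte markers, 2 had such a p, 1 was called by DESeq2 and the groups of 3 did not overlap. Over all genes, 9.90% had such a p by edgeR, 1.19% were called by DESeq2 and 16.9% had groups that did not overlap. The sums of the 10 macrophage markers (940.4 to 1085.0 and 903.6 to 1202.8 CPM) and the 10 stellate cell markers (215.3 to 320.2 and 152.7 to 412.0 CPM) overlapped. Red cell markers, 8 genes with Ahsp at 0 in every DOX library, summed to 59.6 to 93.7 and 26.1 to 181.0 CPM. The part of any of these cells in the cell cycle values was not tested.

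**Figure D5:**
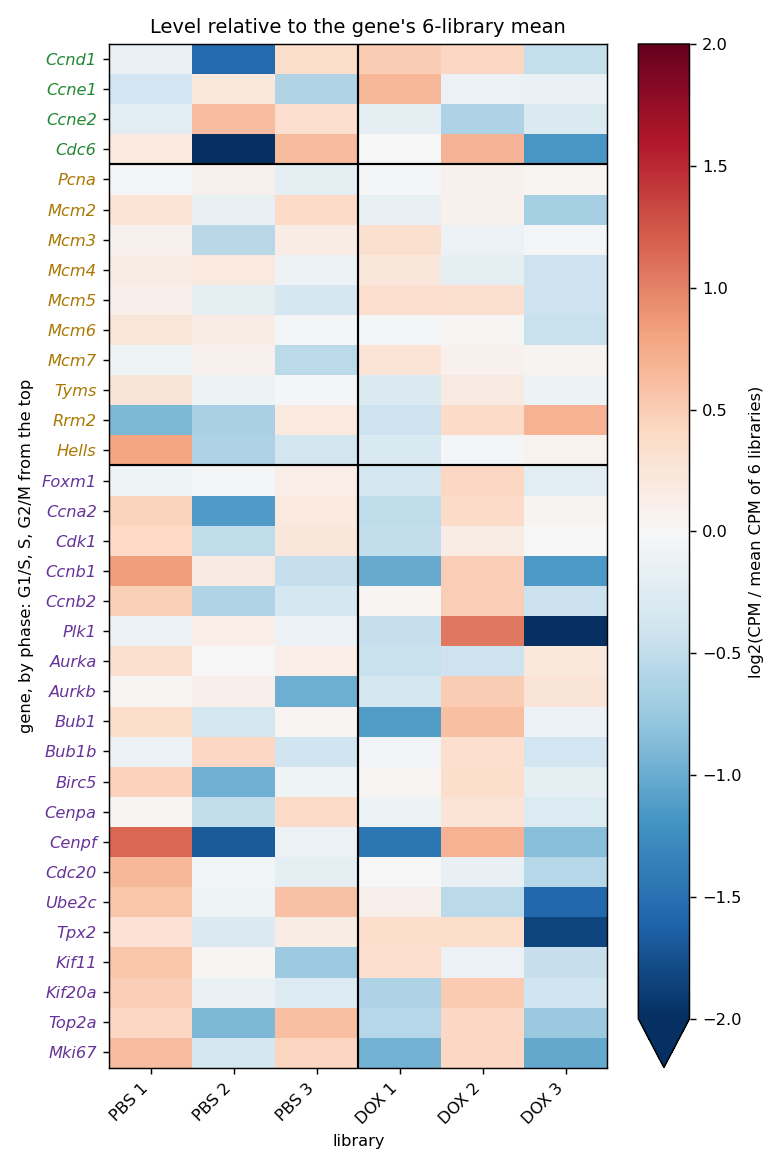
Log2 of each member's CPM over its mean in the 6 libraries (colour, from -2 to 2, with lower values at the end of the scale), genes in rows by phase and libraries in columns. Columns PBS 1 and DOX 2 are mostly above the mean in the G2/M block, DOX 3 mostly below, and the S block is pale.

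Among the genes that commit a cell to mitosis, Cdk1, the mitotic kinase, stood at 1.48, 0.787 and 1.31 CPM in PBS and 0.801, 1.24 and 1.13 in DOX. PBS replicate 2 and DOX replicate 1 were both low, and the log2 fold change was -0.18 (SE 0.36). The cyclins of Cdk1 had log2 fold changes of 0.02 (SE 0.44) for Ccna2, -0.64 (SE 0.58) for Ccnb1 and 0.14 (SE 0.45) for Ccnb2, and Foxm1, the transcription factor of G2/M genes, of -0.02 (SE 0.36). Ccnb1 held 37, 18 and 13 counts in PBS and 9, 23 and 8 in DOX, so both ranges were wide and crossed. The smallest adjusted p of these 5 was 0.739 by edgeR, for Ccnb1.

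The mitotic kinases showed how a single library could move a value. Plk1, which acts from centrosome to cytokinesis, held 22, 20 and 19 counts in PBS and 15, 39 and 5 in DOX, so that the DOX libraries enclosed all PBS libraries. Its log2 fold change was 0.05 (SE 0.66), and -0.99 without DOX replicate 2. Aurka, of the spindle poles, gave a log2 fold change of -0.34 (SE 0.34), and Aurkb, of the chromosomal passenger complex, of 0.38 (SE 0.46). Birc5, the survivin of that same complex, had 0.14 (SE 0.44). None of the 4 passed (edgeR adjusted p = 0.767 to 0.987).

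Several kinetochore and checkpoint genes held few counts, and none passed. Bub1, a spindle checkpoint kinase, was the member below the filter, with 13, 6 and 9 counts in PBS and 4, 12 and 8 in DOX (permutation p = 0.9 on CPM, exact and two-sided, where 0.1 is the smallest possible). For its partner Bub1b the log2 fold change was -0.01 (SE 0.38). Cenpa stood at 2.26, 1.57 and 2.89 CPM in PBS and 2.06, 2.69 and 1.84 in DOX, with a log2 fold change of -0.04 (SE 0.30). Cenpf, a large kinetochore protein, held 28, 3 and 10 counts in PBS and 4, 16 and 6 in DOX, and its interval, -2.28 to 1.31, was the widest of the G2/M members.

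The genes of mitotic exit had the lowest fold change of the members. Ube2c, the ubiquitin-conjugating enzyme of the anaphase-promoting complex, stood at 0.946, 0.605 and 0.963 CPM in PBS and 0.694, 0.443 and 0.216 in DOX. DOX replicate 1 lay above PBS replicate 2, and the other DOX libraries lay below all PBS libraries. Its log2 fold change was -0.89 (SE 0.48, 95% interval -1.98 to 0.20, edgeR adjusted p = 0.567). Cdc20, the activator of that complex, stood at 1.15, 0.696 and 0.642 CPM in PBS and 0.721, 0.65 and 0.486 in DOX, a log2 fold change of -0.43 (SE 0.39). Elovl1 and Tnnc2 have exons that overlap Cdc20 and Ube2c on the opposite strand, and reads of such pairs cannot be told apart unless the counting used strand, which the sources used here do not state.

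Spindle motors and their partner gave estimates near 0, with 95% intervals that each still held a 2-fold decrease. On the log2 scale the fold change was -0.15 (SE 0.54) for Tpx2, which activates Aurka on microtubules, -0.09 (SE 0.42) for Kif11, the motor that separates the poles, and -0.15 (SE 0.41) for Kif20a, a motor of cytokinesis. Tpx2 held 41, 21 and 32 counts in PBS and 37, 34 and 8 in DOX, with DOX replicate 3 apart from the other 5 libraries.

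Top2a and Mki67, the markers of dividing cells used widely in tissue, had wide and overlapping ranges. Mki67 (chr7:135689784-135716361, GRCm38), which coats mitotic chromosomes, stood at 4.34, 2.24 and 3.83 CPM in PBS and 1.47, 3.78 and 1.4 in DOX. DOX replicates 1 and 3 were below all PBS libraries, while DOX replicate 2 was beside the PBS libraries of highest level. The log2 fold change was -0.65 (SE 0.43, 95% interval -1.64 to 0.33, edgeR adjusted p = 0.639), and without DOX replicate 2 it was -1.26 and did not pass either (adjusted p = 0.401). Top2a, the topoisomerase that untangles sister chromatids, stood at 2.7, 1.09 and 3.08 CPM in PBS and 1.36, 2.69 and 1.21 in DOX. Here PBS replicate 2 was the lowest, and the log2 fold change was -0.39 (SE 0.45, edgeR adjusted p = 0.801).

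Other genes of the cycle, in lists that do not hold the members, also gave no call. Of 18 further G1/S regulators, all tested, 0 were called, 0 had an unadjusted p under 0.05 by edgeR, and the median log2 fold change was -0.04. Skp2, which marks the inhibitor p27 for degradation, stood at 2.38, 2.15 and 2.06 CPM in PBS and 1.52, 1.39 and 1.67 in DOX, a log2 fold change of -0.52 (SE 0.24, edgeR adjusted p = 0.506). Its DOX libraries all lay below its PBS libraries. So did those of Cdk6, a partner of D cyclins, with a log2 fold change of -0.22 (SE 0.11, edgeR adjusted p = 0.534). The groups did not overlap for these 2 of the 18 genes, against 16.9% of all genes tested, so the count did not stand above the background. E2f8, a repressor of the E2F family, had 1.05 (SE 0.57), with DOX replicate 1 the highest library at 2.59 CPM against 0.303 to 0.946 in the others.

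Of 34 further replication genes, 32 were tested, 0 were called and 1 had an unadjusted p under 0.05 by edgeR, with a median of -0.06. That gene was Chaf1b, of the chromatin assembly factor that loads histones behind the fork, at 2.08, 1.39 and 1.42 CPM in PBS and 0.908, 1.03 and 0.756 in DOX. The groups did not overlap, and the log2 fold change of -0.86 (SE 0.31) did not pass (edgeR adjusted p = 0.457). In the list, 3.12% had an unadjusted p under 0.05 and the groups of 2 genes did not overlap. Of all genes tested, 9.90% had such a p and 16.9% had groups that did not overlap, so neither count stood above the background. Slbp, the histone mRNA binding protein, had -0.31 (SE 0.14) and Rfc3, of the clamp loader, 0.39 (SE 0.22).

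The list of 55 further mitotic genes had 54 in the table and 37 tested, with 0 called, 3 at an unadjusted p under 0.05 by edgeR (8.11%) and a median of -0.21. Of all genes tested, 9.90% had such a p. The groups did not overlap for 4 of the 37 genes, against 16.9% of all genes, so neither count stood above the background. The summed level of the list was 158.8 to 164.4 CPM in PBS and 139.4 to 157.0 in DOX, but without Kpna2, its most abundant gene, 89.3 to 98.8 and 83.5 to 96.2, which overlapped. The 3 genes of smallest p were Aspm, Kpna2 and Kif23, and their DOX libraries lay below their PBS libraries. Aspm, a spindle pole protein, held 31, 20 and 16 counts in PBS and 3, 8 and 8 in DOX, a log2 fold change of -1.71 (SE 0.51, edgeR adjusted p = 0.396). Kpna2, an importin of nuclear transport, stood at 65.6, 70.2 and 69.5 CPM in PBS and 55.8, 60.9 and 58.9 in DOX, a log2 fold change of -0.23 (SE 0.08, edgeR adjusted p = 0.457). Kif23, a motor of the midbody, had -0.88 (SE 0.36, edgeR adjusted p = 0.489).

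Inhibitors of the cyclin-dependent kinases and genes of quiescence, 20 in the list and 19 tested, had 0 calls and a median of 0.00. By edgeR 1 gene had an unadjusted p under 0.05 (5.26%, against 9.90% of all genes tested). Cdkn1a, the inhibitor p21, stood at 122.1, 212.4 and 134.3 CPM in PBS and 153.4, 170.3 and 151.5 in DOX, with PBS replicate 2 the highest and a log2 fold change of 0.02 (SE 0.20). Cdkn1b, p27, had -0.07 (SE 0.10), Cdkn2c 0.05 (SE 0.18) and Cdkn2b 0.68 (SE 0.52). Cdkn1c had 0.00 (SE 0.25), and Cdkn2a held 0 to 2 counts per library. For Btg2, an antiproliferative gene, the log2 fold change was -0.62 (SE 0.27, edgeR adjusted p = 0.5) with PBS replicate 2 the highest at 118.3 CPM, its relative Btg1 had 0.28 (SE 0.13), and Wee1, the kinase that holds back Cdk1, had -0.21 (SE 0.16).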

How the data were processed

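Libraries were made from liver RNA with the SMARTER mRNA-Seq kit, per the labels' protocols. GRCm38 and mm10 are the builds named in the submitters' processing notes. Not given in the sources used here were aligner, counter and strand setting. Per gene, the authors deposited whole-number counts and FPKM values for the same 6 libraries. In 18913 of 18913 genes checked, these FPKM were the counts over the column total and 1 length per gene (relative tolerance 1e-05). Total counts were 32826493 to 41102844, and on the TMM-scaled sizes behind CPM, 3 counts, the floor, came to 0.0692 to 0.0908 CPM. No pair of replicates agreed within sampling noise (41.9 to 132.2 for the chi-square over its degrees of freedom).

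Groups came from the labels. The test on counts was that of edgeR 4.0.16, run in R 4.3.3 (filterByExpr, TMM scaling, quasi-likelihood test with legacy = TRUE, no block), and p-values were adjusted by Benjamini-Hochberg over all 13725 genes at a threshold of 0.05. Standard errors and 95% intervals come from the quasi-likelihood F statistic. Alternatives were DESeq2 1.42.0, limma 3.58.1 and those in the closing section. The procedure was tested on simulated data. The members and lists were chosen with earlier results of these data known, and no p was adjusted over a list alone. Of the lists, Fam64a and Trac were not matched in the tables. Named were all members, the 3 genes of smallest p of each other cell cycle list, 6 kinase inhibitors and Bche. Pseudogenes of Pcna, Tyms, Ccnb1 and Ccnb2 are annotated in GENCODE, and 10 members have exons that overlap another gene, so their counts are uncertain where the authors' counting could split reads. Positions are those of GENCODE on GRCm38.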

Additional observations from a re-analysis of the deposited data

How the results depend on the processing

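Over the 16 alternatives, 0 members were called in any, and the smallest adjusted p of a member was 0.312 (Rrm2, with the replicate block). Of the 33 members tested, 16 kept the sign of their log2 fold change in all alternatives that tested them, 6 positive and 10 negative, and 17 changed sign in at least 1. Library size only changed the sign of 4 (Cdc6, Pcna, Ccna2 and Plk1) and moved the median of all genes from -0.02 to -0.15, with those of the S and G2/M members at -0.15 and -0.27. Leaving out 1 library gave medians of -0.17 (without PBS replicate 2) to 0.46 (without DOX replicate 3) for G1/S, -0.09 to 0.16 for S and -0.36 (without DOX replicate 2) to 0.01 (without DOX replicate 1) for G2/M. A filter at 1 CPM in 3 libraries left 17 members tested. Between 0 and 2 members had an unadjusted p under 0.05 in an alternative, where 6.63% to 14.2% of all genes had such a p.

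Over all genes, 4 were called (3 higher, 1 lower). DESeq2 called 176 (128 higher, 48 lower), no filter 61 (45 and 16), limma-voom 2 (1 higher) and library size only 5 (3 higher, 2 lower). The cause was not tested. Leaving out 1 library gave 3 to 4 called, 3 to 4 higher and 0 to 1 lower, the 0 arising on leaving out PBS replicate 1, PBS replicate 3, DOX replicate 1 or DOX replicate 2. With the replicate block 21 were called (17 higher, 4 lower) and 0 members. The labels give the replicate numbers no meaning, so they were not taken as a pairing. The deviations of libraries of the same number correlated at 0.192, 0.13 and 0.00975, and those of different numbers at -0.183 to 0.0565. PBS replicate 3 correlated best with DOX replicate 1 (0.0518).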

Other observations

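Genes tied to growth signals in liver, receptors among them, were read from a list of 18, of which 15 were tested. By edgeR 0 were called and 2 had an unadjusted p under 0.05 (13.3%, against 9.90% of all genes tested), with a median log2 fold change of 0.18. DESeq2 called 1, against 1.19% of all genes. The groups did not overlap for 4 of the 15, 2 higher and 2 lower in DOX, against 16.9% of all genes tested. Fgfr4, the hepatocyte receptor of the bile acid hormone FGF15, stood at 46.8, 47.9 and 49.5 CPM in PBS and 35.3, 37.9 and 34.4 in DOX. All DOX libraries lay below all PBS libraries, and its log2 fold change was -0.42 (SE 0.08), which did not pass by edgeR (adjusted p = 0.196) and passed by DESeq2 (adjusted p = 0.0248). Ccn1, a matricellular target of YAP, stood at 33.2, 34.4 and 30.8 CPM in PBS and 28.5, 25.5 and 13.3 in DOX, a log2 fold change of -0.55 (SE 0.24, edgeR adjusted p = 0.5). Met, the receptor of hepatocyte growth factor, stood at 50.1, 51.7 and 50.9 CPM in PBS and 57.8, 53.8 and 68.6 in DOX, a log2 fold change of 0.24 (SE 0.11, edgeR adjusted p = 0.5). DOX replicate 3 was the lowest library for Ccn1 and the highest for Met.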
